A study of Mus musculus with 18 samples.

Results

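Malat1, Neat1, Gas5, Snhg1, Snhg8, Snhg12, Mir22hg and Kcnq1ot1 are 8 long noncoding RNAs known as nuclear RNAs or as hosts of small RNAs. They were taken by name from the 55401 annotated genes of each library, by matching gene identifiers to symbols. All 8 had at least 3 read pairs in every library and all 8 passed the filter on low counts in each comparison. The libraries measured RNA of LPS-treated mouse macrophages in 6 groups of 3, all of C57BL/6J background and all given LPS at 5 ng/ml for 6 h. WT and Mut were peritoneal macrophages of wild-type mice and of mice with a mutation in Smim30, the gene of a small membrane protein. Mut AdCtrl and Mut AdSmim30 were peritoneal macrophages of the mutant mice infected with a control adenovirus or one that expressed SMIM30, for 24 h. siCtrl and siSmim30 were IC-21 cells, an established mouse peritoneal macrophage line, transfected for 24 h with a control siRNA or one against Smim30. Every Mut group carried the mutation, both adenovirus groups carried a virus, and IC-21 is 1 transformed line. Neither the mutated bases nor the sex or age of the mice is stated in the labels. They also do not say whether replicates came from separate mice or cultures, so p-values measure the spread between these libraries, which may be technical.

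Malat1 is a long, mostly unspliced RNA of nuclear speckles, the bodies where splicing factors gather, and it is among the most abundant noncoding RNAs of most cells. Neat1, its chromosomal neighbour, is the scaffold of paraspeckles: a short transcript ends at an internal polyadenylation site, and only the long one builds the body. Neat1 is known to rise in macrophages given LPS. Gas5, Snhg1, Snhg8 and Snhg12 are hosts of small nucleolar RNAs (snoRNAs), which guide the chemical modification of ribosomal RNA. The snoRNA is released from an intron, and the spliced host is often a target of nonsense-mediated decay, a pathway coupled to translation. Many such hosts begin with a pyrimidine run, the 5′ TOP motif, which they share with messenger RNAs of ribosomal proteins. Mir22hg is the host of the microRNA miR-22. Kcnq1ot1 is transcribed antisense inside Kcnq1 from the paternal chromosome and is known for silencing its imprinted neighbours in cis.

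The starts of 7 of the 8 RNAs are shown first because hosts of the TOP class are known by them; Neat1 is not among them. Each window holds 20 bases before and 30 from the annotated start, from RefSeq on GRCm38.p6, and capitals mark the run of C or T without interruption that covers the start. The windows lie at chr4:132308658-132308707 on the plus strand for Snhg12, chr3:123508307-123508356 on the minus strand for Snhg8, chr1:161035146-161035195 on the plus strand for the second start of Gas5, chr19:8723467-8723516 on the plus strand for Snhg1, chr19:5802643-5802692 on the minus strand for Malat1, chr11:75461519-75461568 on the plus strand for Mir22hg and chr7:143296518-143296567 on the minus strand for Kcnq1ot1.
Snhg12: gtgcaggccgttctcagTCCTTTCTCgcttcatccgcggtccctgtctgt
Snhg8: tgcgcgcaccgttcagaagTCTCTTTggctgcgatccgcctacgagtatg
Gas5: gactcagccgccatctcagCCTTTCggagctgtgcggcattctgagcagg
Snhg1: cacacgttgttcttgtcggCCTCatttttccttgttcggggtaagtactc
Malat1: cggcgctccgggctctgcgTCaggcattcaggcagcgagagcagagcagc
Mir22hg: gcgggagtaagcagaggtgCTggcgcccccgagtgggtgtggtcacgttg
Kcnq1ot1: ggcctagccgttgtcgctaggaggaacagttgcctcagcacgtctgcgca
The run was 9 bases long in Snhg12, 7 in Snhg8, 6 in Gas5 and 4 in Snhg1. At the annotated start itself the base was T in Snhg12 and C in Snhg8, Gas5 and Snhg1. Of 32851 RefSeq start windows, 3.03% had a run at least as long as that of Snhg12 and 5.28% one as long as that of Snhg8. For Gas5 the share was 7.25% and for Snhg1 13.97%. Malat1 and Mir22hg had a run of 2, a length reached by 24.4% of windows. Kcnq1ot1 and the first annotated start of Gas5 had none. Snhg12, Snhg8 and Gas5 thus had the longest runs of the windows shown.

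The small RNAs carried by the hosts are the reason for their names, and 1 example is shown for each kind. In the box C/D snoRNAs Snord47 of Gas5 (chr1:161038082-161038158, plus strand) and Snord99 of Snhg12 (chr4:132310691-132310764, plus strand), capitals mark box C and box D. In the box H/ACA snoRNA Snora24 of Snhg8 (chr3:123507937-123508066, minus strand), capitals mark the ACA box. These 3 sequences are from the GENCODE M21 transcripts of GRCm38. In the 2 mature microRNAs of Mir22hg, from RefSeq at chr11:75463734-75463755 and chr11:75463772-75463793 on the plus strand, capitals mark the seed, bases 2 to 8.
Snord47: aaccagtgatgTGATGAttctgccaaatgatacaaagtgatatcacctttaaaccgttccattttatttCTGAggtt
Snord99: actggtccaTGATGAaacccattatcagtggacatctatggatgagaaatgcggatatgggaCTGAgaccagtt
Snora24: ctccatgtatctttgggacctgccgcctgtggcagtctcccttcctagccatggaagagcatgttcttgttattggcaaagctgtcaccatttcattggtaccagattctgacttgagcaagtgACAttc
mmu-miR-22-5p: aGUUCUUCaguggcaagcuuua
mmu-miR-22-3p: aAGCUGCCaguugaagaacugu
The annotation placed 24 snoRNAs and 1 microRNA inside the hosts: 10 in Gas5, 8 in Snhg1, 5 in Snhg12, 1 in Snhg8 and 1 in Mir22hg. All 25 lie within an exon of some annotated host transcript and pairs that overlap more than 1 gene were not counted. None of the 25 had a count in any library, so the host levels below say nothing of the small RNAs.

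Malat1 and Neat1 also carry sequence that bears on how they are counted. The A-rich tract near the Malat1 3′ end (chr19:5795968-5796039, minus strand), a genome-encoded tract of the kind that folds into a stabilizing triple helix, has its run of A in capitals. The end of the short Neat1 transcript (chr19:5842307-5842366, minus strand) has its polyadenylation signal in capitals. Both are from GENCODE M21 transcripts of GRCm38.
Malat1 A-rich tract: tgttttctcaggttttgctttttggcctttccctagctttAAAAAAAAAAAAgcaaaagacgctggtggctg
Neat1 short transcript end: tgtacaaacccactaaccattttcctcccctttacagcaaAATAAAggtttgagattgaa
The short Neat1 transcript ends at base 3172 of the long one, so 15.3% of the counted length of 20771 bases is shared and the gene count cannot separate both forms. Counting used the strand, so reads of Zbtb37 opposite Gas5 and of Kcnq1 opposite Kcnq1ot1 were kept apart. Tlcd2 overlaps Mir22hg on the same strand and was at 1.02 to 5.28 CPM (counts scaled to the library's total) over the 18 libraries.

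In the genome (GRCm38), Malat1 (ENSMUSG00000092341.3) covers 5795690 to 5802672 of chromosome 19, minus strand, and Neat1 (ENSMUSG00000092274.3) covers 5824708 to 5845478 of the same strand. Snhg1 (ENSMUSG00000108414.1) lies at 8723475 to 8726443 of chromosome 19, plus strand. Gas5 (ENSMUSG00000053332.13) lies at 161034422 to 161038539 of chromosome 1, plus strand, Snhg8 (ENSMUSG00000104960.1) at 123507552 to 123508404 of chromosome 3, minus strand, and Snhg12 (ENSMUSG00000086290.9) at 132308623 to 132311024 of chromosome 4, plus strand. Mir22hg (ENSMUSG00000085148.1) lies at 75461539 to 75466676 of chromosome 11, plus strand. Kcnq1ot1 (ENSMUSG00000101609.2) is annotated as 1 exon of 93092 bases at 143203458 to 143296549 of chromosome 7, minus strand. Transcripts with a retained intron make up 20 of the 25 annotated for Gas5 and 14 of the 18 for Snhg1, so that 91.3% of the Gas5 gene counts as exon. Intronic reads of these hosts are therefore part of their counts.

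Depth ran from 6855245 to 13456857 counted pairs per library, and the 8 genes held 0.571 to 1.63% of them. Ribosomal RNA genes held 0.195 to 2.49% of counts, with 1.74 to 2.49% in WT and 0.399 to 1.03% in Mut, and mitochondrial genes had no counts. Smim30, listed as 2610001J05Rik, had 44.3 to 50.9 CPM in WT libraries and 42.3 to 52.9 in Mut. It was at 42.1 to 45.9 CPM in Mut AdCtrl and 51.6 to 55.1 in Mut AdSmim30. In the line it was at 20.02 to 22.5 CPM in siCtrl and 8.83 to 12.03 in siSmim30. Both the infected and the transfected groups thus differed from their controls in the labelled direction. With the SMIM30 virus the step was small, from a mean of 43.9 to 53.1 CPM, and Mut AdSmim30 overlapped uninfected Mut. A count per gene does not show which bases are mutated, so it does not check the Mut label. Macrophage markers (9 of 9 detected) summed to 10439 to 12248 CPM in the primary cells and 3056 to 3270 CPM in the line. In bulk RNA, fewer cells of a type and less RNA per cell cannot be told apart.

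Malat1 dominated the set in every library. Per kilobase of counted exon it stood at 787 RPKM (CPM per kilobase) in WT and 1841 RPKM in siCtrl, and it was the most abundant gene by counts in all 6 IC-21 libraries and ranked 9 to 16 in the 12 primary libraries. It held 47.5 to 58.3% of all long noncoding RNA counts. In WT the order by mean RPKM was then Neat1 at 45.5, Mir22hg at 24.6, Gas5 at 9.75, Snhg8 at 4.96, Snhg1 at 3.19, Snhg12 at 2.43 and Kcnq1ot1 at 0.921. Snhg1 at 2.88 to 3.64 RPKM and Snhg12 at 2.01 to 3.09 RPKM overlapped, so their order is not set by these libraries. In siCtrl the order was Malat1, Neat1 at 87.6, Mir22hg at 23.8, Gas5 at 14.01, Snhg1 at 11.97, Snhg8 at 9.30, Kcnq1ot1 at 6.81 and Snhg12 at 5.02 RPKM. Snhg1 at 10.7 to 12.8 RPKM and Snhg8 at 5.47 to 12.1 RPKM overlapped there. Snhg8 also overlapped Kcnq1ot1 at 6.78 to 6.88 RPKM and Snhg12 at 4.65 to 5.73 RPKM, so its place is not set. Snhg8 had the fewest pairs, 31 to 106 per library.

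**Figure D1:**
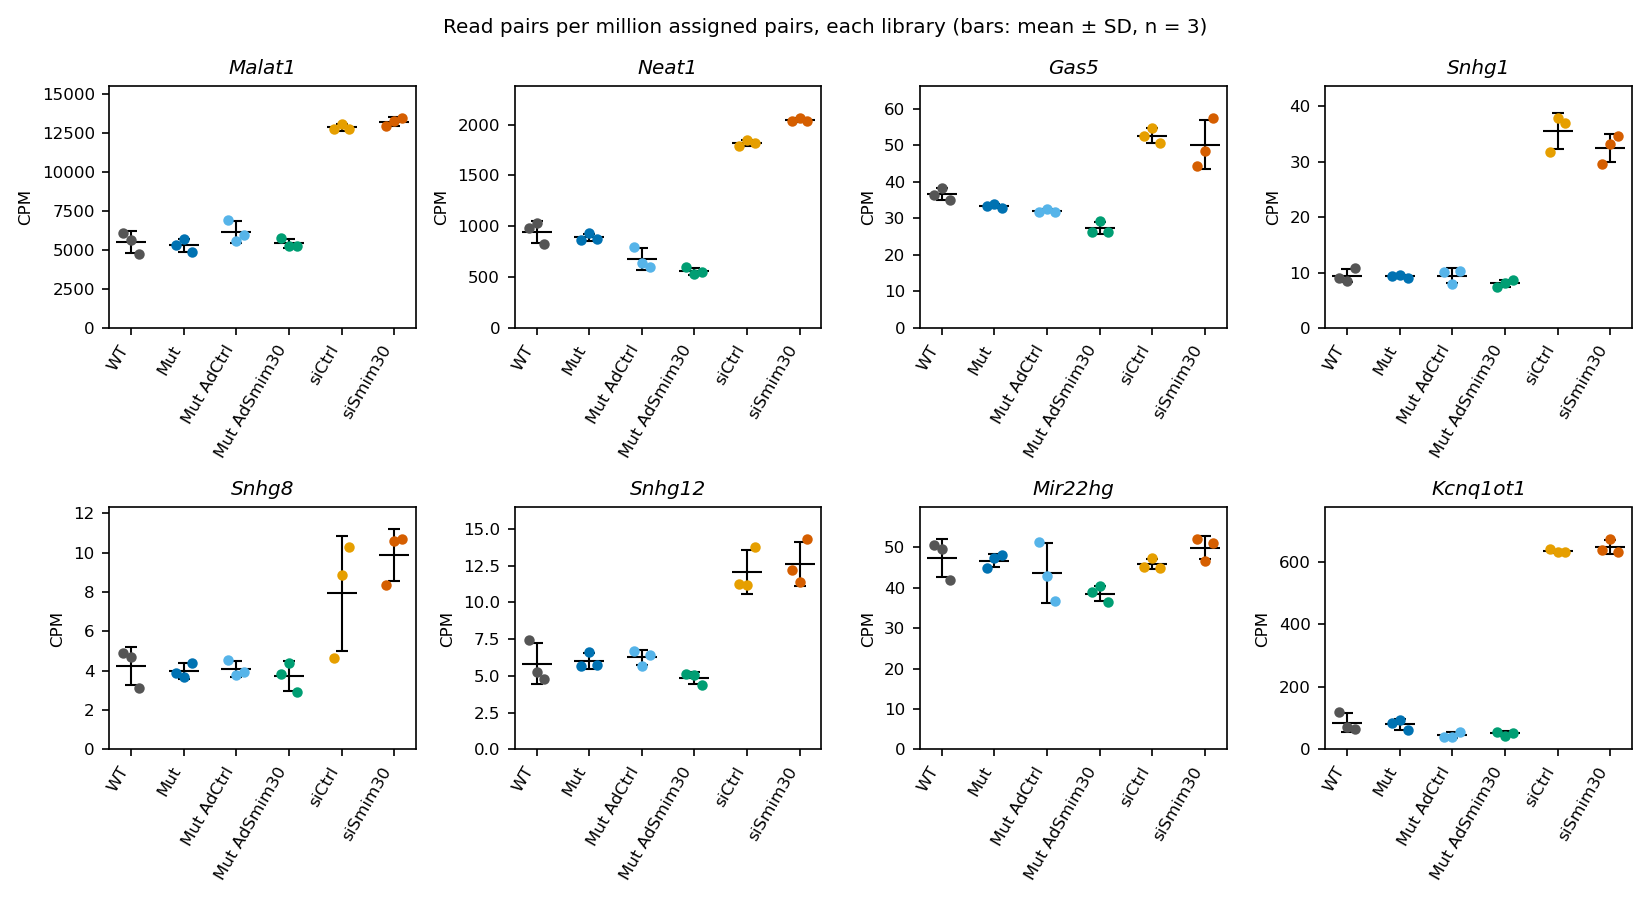
CPM of the 8 long noncoding RNAs in each library, on linear axes from 0, by group; points are libraries and bars are means ± SD (n = 3). Kcnq1ot1 had means of 85.7 CPM in WT and 634 CPM in siCtrl, and Mir22hg 47.4 and 45.8 CPM.

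The Smim30 mutation left no member past the threshold. In WT and Mut, Malat1 was at 5493 ± 697 and 5304 ± 420 CPM, Neat1 at 945 ± 108 and 891 ± 35.4 CPM, and Mir22hg at 47.4 ± 4.73 and 46.7 ± 1.70 CPM (SD, n = 3). By edgeR's quasi-likelihood test with Benjamini-Hochberg adjustment over 12500 genes, 0 of 8 members were called, where 6.3% of all genes were. None reached an unadjusted p under 0.05, and neither DESeq2 nor limma-voom called any. Leaving out the ribosomal RNA genes changed no member's call. The smallest adjusted p was 0.376, for Gas5. Gas5 had 36.4, 38.4 and 35.1 CPM in WT libraries and 33.5, 34.03 and 32.7 CPM in Mut. Every Mut library thus lay under every WT library, by a small step: log2 fold change -0.14, SE 0.08, 95% interval -0.31 to 0.02. How many of all genes lay so was not counted in this comparison, and Gas5 was not called. The other snoRNA hosts lay on top of each other, with Snhg1 at 9.46 ± 1.19 and 9.34 ± 0.248 CPM, Snhg8 at 4.23 ± 0.963 and 3.99 ± 0.383 CPM, and Snhg12 at 5.84 ± 1.39 and 6.01 ± 0.556 CPM (SD, n = 3). Markers of B cells, 7 genes, summed to 75.8 to 82.3 CPM in WT and 54.1 to 59.0 CPM in Mut, and dendritic cell markers, 5 genes, to 6.70 to 7.43 and 9.06 to 13.97 CPM. In siCtrl, of the line, 6 of the 7 B cell markers stayed under 3 counts in every library and the sum was still 57.0 to 62.1 CPM. The B cell sum is thus no measure of B cells alone. The part of these markers in the lower Gas5 values was not tested.

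Among the WT and Mut libraries Kcnq1ot1 spread widely. It was at 121, 70.7 and 65.0 CPM in WT libraries and 85.7, 94.2 and 61.2 CPM in Mut. The groups overlapped, and 1 WT library stood above all others. Its log2 difference of Mut from WT was -0.11 (SE 0.34, 95% interval -1.02 to 0.80, adjusted p = 0.922). Without WT replicate 1 the difference was 0.22 (adjusted p = 0.773), with the sign turned. Neat1 was called without WT replicate 3 (log2 -0.18, adjusted p = 0.0464), against -0.09 and 0.578 with all 6 libraries. As a fold of WT the 95% interval ran from 0.492 to 1.74 for Kcnq1ot1, from 0.784 to 1.17 for Malat1 and from 0.838 to 1.05 for Neat1.

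Adenoviral SMIM30 in mutant cells was likewise followed by no called member, although 7 of 8 lay below the virus control. Over all 12701 genes 49.9% lay below, and the members' median log2 fold change was -0.20 against 0.00 for all genes. edgeR's test called 0 of 8 members and 1.43% of all genes. Gas5 and Snhg12, 2 members, had an unadjusted p under 0.05, as did 10.5% of all genes. Gas5 was at 31.8, 32.6 and 31.8 CPM in Mut AdCtrl and 26.4, 29.4 and 26.4 CPM in Mut AdSmim30. Its groups did not overlap, with a log2 fold change of -0.22 (SE 0.08, 95% interval -0.38 to -0.07) and an adjusted p of 0.160. Neat1 was at 800, 635 and 600.03 CPM in Mut AdCtrl and 597, 530.4 and 548 CPM in Mut AdSmim30. Here too the groups did not overlap, by a margin that rests on the third control library (log2 -0.28, SE 0.13, adjusted p = 0.601). Snhg12 was at 6.26 ± 0.501 CPM in the control and 4.85 ± 0.404 CPM with SMIM30 (SD, n = 3; log2 -0.37, SE 0.18, adjusted p = 0.435). Gas5, Neat1 and Snhg12 were the 3 members that lay lower in every library, and 8.06% of all genes did so.

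The remaining members overlapped between the virus groups. Malat1 was at 6145 ± 696 CPM in Mut AdCtrl and 5419 ± 284 CPM in Mut AdSmim30 (log2 -0.18, adjusted p = 0.662), and Mir22hg at 43.7 ± 7.35 and 38.6 ± 1.89 CPM (log2 -0.19, adjusted p = 0.482; SD, n = 3). Snhg1 differed by -0.22 (adjusted p = 0.633) and Snhg8 by -0.14 (adjusted p = 0.890) on the log2 scale. Kcnq1ot1 alone lay above its control, by 0.18 (SE 0.19, adjusted p = 0.854). Some calls depended on the tool or on 1 library. DESeq2, which gave an adjusted p only for Malat1 and Neat1, called neither, while limma-voom called Malat1 (adjusted p = 0.00744) and Neat1 (adjusted p = 0.00565). Without Mut AdCtrl replicate 3, Mir22hg (log2 -0.29, adjusted p = 0.00377) and Kcnq1ot1 (log2 0.34, adjusted p = 0.000832) were called. Markers of fibroblasts and mesothelial cells, 9 genes, summed to 91.4 to 112 CPM in Mut AdCtrl and 50.3 to 57.4 CPM in Mut AdSmim30, and their part in these differences was not tested.

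Knockdown of Smim30 in the line gave the 1 call among the members: Neat1, the paraspeckle scaffold, rose. It was at 1792, 1845 and 1822 CPM in siCtrl and 2039, 2069 and 2035 CPM in siSmim30. Each knockdown library lay above each control, and the gap between the groups was wider than the range within either. How many of all genes lay so was not counted in this comparison. The rise was 1.14-fold (log2 0.19, SE 0.03, 95% interval 0.13 to 0.24), with an adjusted p of 8.70e-07 over 13576 genes by edgeR's test. It was 1 of 8 members called, where 3.48% of all genes were. The log2 value ran from 0.17 to 0.20 over 15 alternative settings, and the call was lost in 1 of them, the fit of all 18 libraries (adjusted p = 0.525).

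Malat1, which lies beside Neat1 on chromosome 19, was at 12859 ± 209 CPM in siCtrl and 13235 ± 287 CPM in siSmim30 (SD, n = 3). That is a log2 difference of 0.06 (SE 0.02, adjusted p = 0.128), called by limma-voom (adjusted p = 0.00199). Neat1 per 100 Malat1 counts, a ratio within each library that no scaling touches, was 14.1 to 14.3 in siCtrl and 15.1 to 15.8 in siSmim30. The ratios did not overlap, and the exact two-sided permutation p was 0.1, the smallest that 3 against 3 can give (0.25 adjusted over 15 ratio tests). Ehbp1l1, a protein-coding neighbour within 100 kb, was also called, at 224 ± 5.37 and 257 ± 10.3 CPM (log2 0.22, adjusted p = 7.03e-05).

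The snoRNA hosts did not pass in the knockdown, and their sampling error is larger. Gas5 was at 52.7 ± 2.01 and 50.2 ± 6.75 CPM, Snhg1 at 35.6 ± 3.29 and 32.5 ± 2.58 CPM, Snhg8 at 7.94 ± 2.92 and 9.88 ± 1.32 CPM and Snhg12 at 12.1 ± 1.48 and 12.6 ± 1.51 CPM in siCtrl and siSmim30 (SD, n = 3). The 95% interval of the log2 difference was -0.21 to 0.09 for Gas5 and -0.08 to 0.66 for Snhg8. Snhg8 rested on few pairs, and its interval reached a 1.58-fold rise. Mir22hg was at 45.8 ± 1.26 and 49.9 ± 2.87 CPM (log2 0.13, adjusted p = 0.397). Kcnq1ot1 was at 634 ± 4.98 and 648 ± 21.8 CPM (log2 0.05, adjusted p = 0.523).

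**Figure D2:**
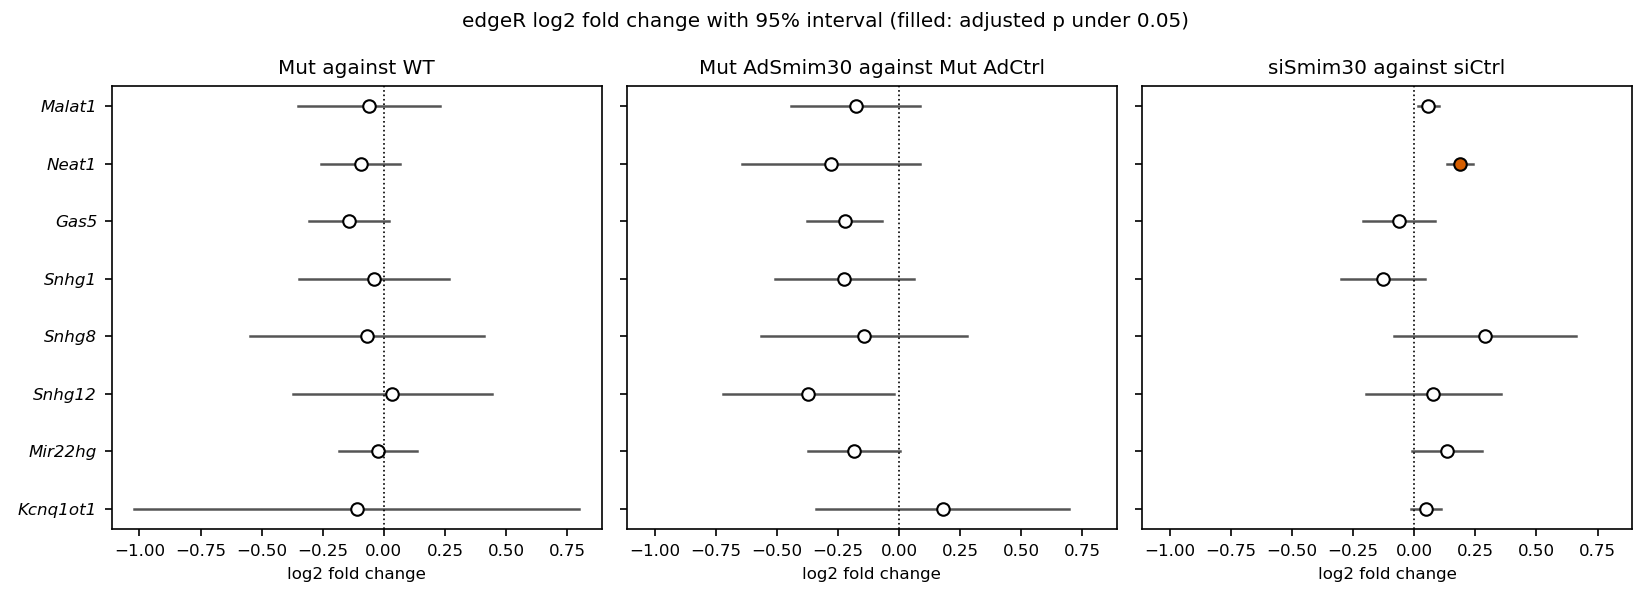
Log2 fold change of each long noncoding RNA in the 3 Smim30 comparisons, with 95% intervals from edgeR (3 libraries against 3); a filled point passed the threshold. Neat1 after knockdown, at 0.19, is the single call, and the widest interval is that of Kcnq1ot1 in Mut against WT.

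The mutation and the knockdown both act on Smim30, and their effects on each member were compared in 1 model of 12 libraries. Neat1 differed: the mutation effect minus the knockdown effect was -0.28 on the log2 scale (SE 0.07, 95% interval -0.42 to -0.13, adjusted p = 0.0211). It was the 1 of 8 members called, where 2.51% of 14804 genes were. The call was lost in 8 of 21 alternatives, 6 of them the loss of 1 library. Without WT replicate 2 the difference was -0.21 (adjusted p = 0.132). Without siCtrl replicate 1 or 3 the adjusted p was 0.0844 or 0.0637, and without siSmim30 replicate 1, 2 or 3 it was 0.0697, 0.0765 or 0.0557. The other members' differences ran from -0.35 for Snhg8 to 0.08 for Snhg1 and did not pass. Cell source, mutation or siRNA, and the part of the series coincide in this contrast and cannot be told apart.

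Between the virus control and the uninfected mutant cells, Neat1 and Kcnq1ot1 were both lower, each close to the threshold. Neat1 was at 869, 931 and 872 CPM in Mut and at 800, 635 and 600.03 CPM in Mut AdCtrl. Every virus library lay lower (log2 -0.43, SE 0.12, adjusted p = 0.0445 by edgeR). Kcnq1ot1 was at 85.7, 94.2 and 61.2 CPM in Mut and at 40.2, 40.8 and 56.2 CPM in Mut AdCtrl, again without overlap (log2 -0.84, SE 0.24, adjusted p = 0.0457). These were 2 of 8 members, where 53.6% of all 12798 genes were called, so the share of members was under the background. Virus, the longer culture and the part of the series coincide between these groups and cannot be told apart.

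Neither call was firm: of 15 alternatives, 6 lost it for Neat1 and 7 for Kcnq1ot1. The log2 values ran from -0.56 to -0.35 and from -1.02 to -0.71. DESeq2 (adjusted p = 0.00506 for Neat1 and 0.00164 for Kcnq1ot1), limma-voom (2.87e-05 and 4.72e-05) and the edgeR fit of all 18 libraries (0.00240 and 0.0104) called both. For Neat1 the adjusted p was 0.111, 0.124 and 0.114 without Mut replicate 1, 2 or 3 and 0.109 without Mut AdCtrl replicate 2. For Kcnq1ot1 it was 0.126 and 0.111 without Mut replicate 1 or 2, and 0.132 and 0.130 without Mut AdCtrl replicate 1 or 2. With the replicate number as a block it was 0.178 for Kcnq1ot1, although whether the numbers pair the libraries is not known. Malat1 did not share the lower level: it was at 5304 ± 420 and 6145 ± 696 CPM (log2 0.18, adjusted p = 0.243). Neat1 per 100 Malat1 counts was 16.8 ± 0.868 in Mut and 11.01 ± 0.805 in Mut AdCtrl, and Kcnq1ot1 per 100 Malat1 counts was 1.505 ± 0.2203 and 0.753 ± 0.183 (SD, n = 3; exact permutation p = 0.1 for each, 0.25 adjusted). Gas5, Snhg1, Snhg8, Snhg12 and Mir22hg lay between -0.13 and 0.03 on the log2 scale, and none was called. Gas5 too was without overlap, at 32.7 to 34.03 CPM in Mut and 31.8 to 32.6 CPM in Mut AdCtrl. How many of all genes did not overlap was not counted in this comparison. Mir22hg was called without Mut AdCtrl replicate 1 (log2 -0.27, adjusted p = 0.0141). Markers of fibroblasts and mesothelial cells summed to 205 to 242 CPM in Mut and 91.4 to 112 CPM in Mut AdCtrl, and those of mast cells to 8.05 to 9.47 and 3.58 to 5.12 CPM. Neutrophil markers summed to 5.99 to 9.56 and 1.84 to 2.93 CPM, but 4 and 5 of the 6 stayed under 3 counts in every library. Ly6g and S100a9 had no count in either group. Dendritic cell markers summed to 9.06 to 13.97 and 3.91 to 4.92 CPM. The B cell sum was higher with virus, at 54.1 to 59.0 and 83.0 to 94.8 CPM, yet 0 and 2 of its 7 genes stayed under 3 counts. In siCtrl 6 of these 7 did, and the sum was still 57.0 to 62.1 CPM, so it is no measure of B cells alone. The part of these markers in the lower Neat1 and Kcnq1ot1 was not tested.

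**Figure D3:**
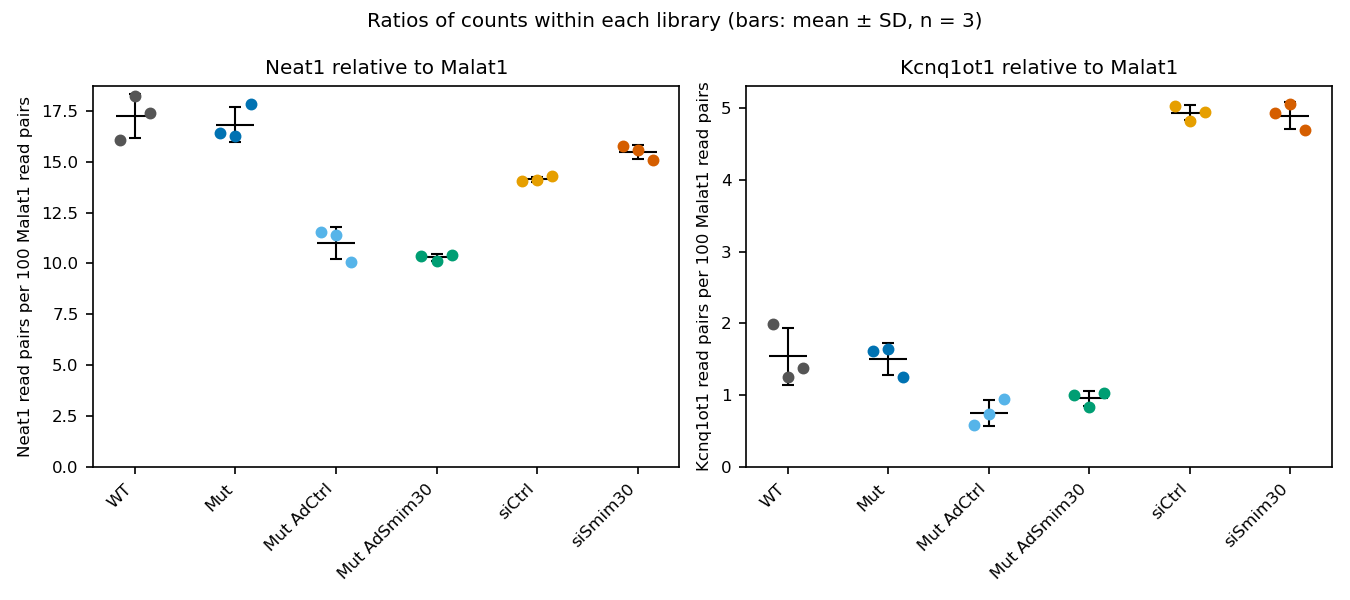
Neat1 and Kcnq1ot1 per 100 Malat1 counts in each library, by group; points are libraries and bars are means ± SD (n = 3). Neat1 per 100 Malat1 lay between 14.1 and 14.3 in siCtrl and between 15.1 and 15.8 in siSmim30, and its means were 16.8 in Mut and 11.01 in Mut AdCtrl.

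Kcnq1ot1 is an unspliced RNA, and its level is given beside that of another class of single-exon genes. Genes typed TEC in the annotation (to be experimentally checked, mostly single-exon models) held 0.292, 0.203 and 0.184% of counts in the WT libraries, whose Kcnq1ot1 was at 121, 70.7 and 65.0 CPM. They held 0.238, 0.251 and 0.179% in Mut and 0.160, 0.15 and 0.190% in Mut AdCtrl. In 4 of 4 primary groups the library with the most Kcnq1ot1 was also the one with the largest TEC share. In IC-21 the TEC share was 0.540 to 0.557%, above every primary library, as was Kcnq1ot1. The part of the TEC share in the Kcnq1ot1 differences was not tested.

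**Figure D4:**
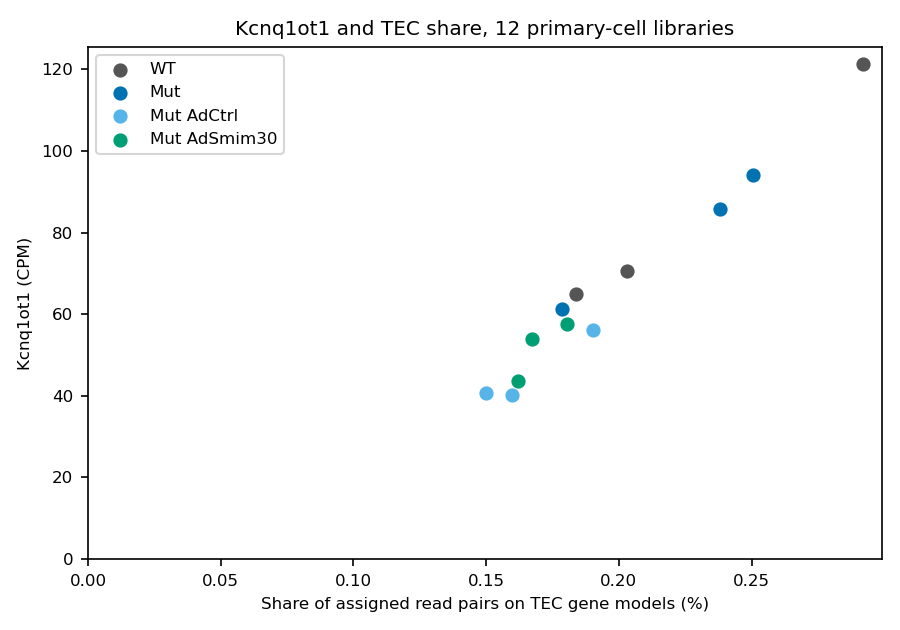
Kcnq1ot1 CPM against the share of counts on genes typed TEC, for the 12 primary libraries, coloured by group. The 12 primary libraries lie between 0.15 and 0.292% TEC, and the WT library at 121 CPM is the farthest to the right.

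The largest differences of level were between the line and the primary cells. Kcnq1ot1 stood at 634 ± 4.98 CPM in siCtrl against 85.7 ± 31.1 CPM in WT, and Snhg1 at 35.6 ± 3.29 against 9.46 ± 1.19 CPM (SD, n = 3). Malat1 was at 12859 ± 209 against 5493 ± 697 CPM, and Neat1 at 1820 ± 26.6 against 945 ± 108 CPM. For these 4, and for Gas5 and Snhg12, every siCtrl library lay above every WT library in CPM, as it did for 65.1% of all genes. With TMM scaling, which sets the typical gene equal, the log2 differences of siCtrl from WT were 2.19 (SE 0.25) for Kcnq1ot1, 1.202 (SE 0.12) for Snhg1, 0.52 (SE 0.07) for Malat1 and 0.24 (SE 0.06) for Neat1, with adjusted p-values of 0.00110, 6.84e-13, 2.23e-05 and 0.00123 by edgeR. With library totals alone they were 2.89, 1.91, 1.23 and 0.95, so their direction was the same under both scalings. The Neat1 call was lost in the fit of all 18 libraries (adjusted p = 0.0642).

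For Gas5 the direction depended on the scaling, and for Mir22hg the call did. Gas5 was at 36.6 ± 1.69 CPM in WT against 52.7 ± 2.01 CPM in siCtrl (SD, n = 3), a log2 difference of 0.53 (adjusted p = 2.03e-08) with library totals and -0.17 (adjusted p = 0.0302) with TMM. The TMM call was lost without WT replicate 2 (adjusted p = 0.0708) and without siCtrl replicate 1 (0.0604) or 3 (0.0999). It was also lost with DESeq2 (adjusted p = 0.0995) and in edgeR with no filter (0.0557). Mir22hg was at 47.4 ± 4.73 and 45.8 ± 1.26 CPM, which is -0.74 (adjusted p = 2.50e-12) with TMM and -0.04 (adjusted p = 0.647) with library totals. The TMM factors were 0.827 to 0.857 in the primary libraries and 1.38 to 1.42 in IC-21, and the change of scaling moved the median of all genes by 0.70 on the log2 scale. Snhg8 (log2 0.26, adjusted p = 0.310) and Snhg12 (log2 0.35, adjusted p = 0.0641) were not called with TMM but were called with library totals, at 0.96 and 1.05. Without siCtrl replicate 1, Snhg8 was called (log2 0.49, adjusted p = 0.0374), and without WT replicate 1, Snhg12 was (log2 0.52, adjusted p = 0.0109). With TMM 6 of 8 members were called, against 80.3% of all 14066 genes, a share near the background. Of all called genes 49.96% were higher in siCtrl with TMM and 75.2% with library totals. Markers of fibroblasts and mesothelial cells summed to 227 to 253 CPM in WT and to 0.116 to 0.292 CPM in siCtrl, where 6 of the 9 had no count. Cell source, transfection and the part of the series coincide here and cannot be told apart.

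The proportions between members differed as well, and these need no scaling. Snhg1 per 100 Gas5 counts, a pair of hosts of the same class, was 25.9 ± 4.38 in WT and 67.5 ± 6.42 in siCtrl, without overlap (SD, n = 3; exact permutation p = 0.1, the smallest possible). It was 28.0, 29.5, 29.4 and 65.1 in Mut, Mut AdCtrl, Mut AdSmim30 and siSmim30. Kcnq1ot1 per 100 Malat1 counts was 1.54 ± 0.398 in WT and 4.93 ± 0.104 in siCtrl (exact permutation p = 0.1). Neat1 per 100 Malat1 counts was lower in the line, at 17.2 ± 1.08 in WT and 14.2 ± 0.123 in siCtrl (exact permutation p = 0.1).

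**Figure D5:**
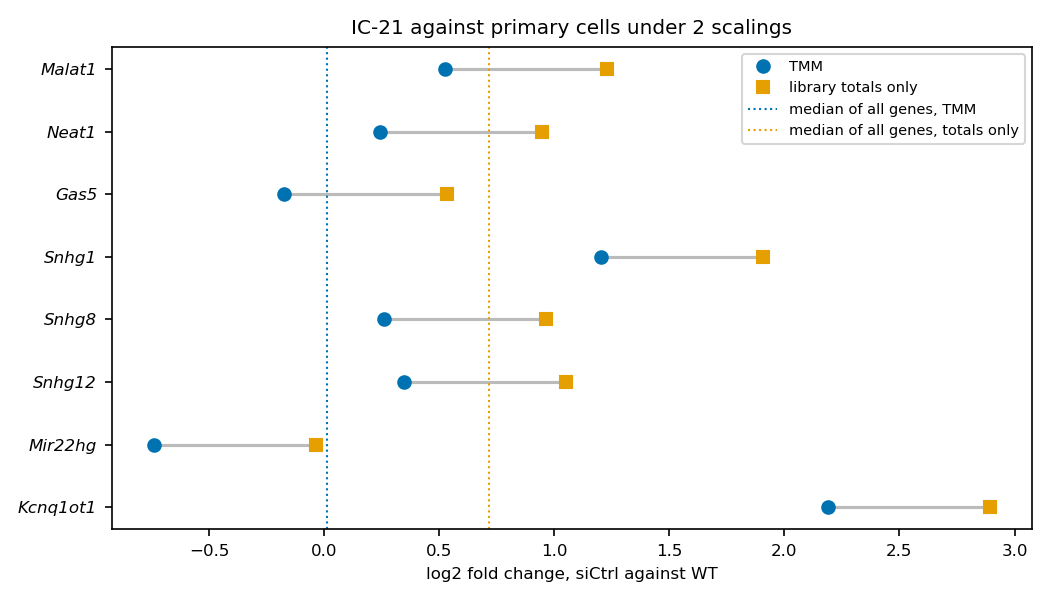
Log2 difference of siCtrl from WT for each long noncoding RNA with TMM scaling and with library totals only, from edgeR (3 libraries against 3); dotted lines are the medians of all genes. Gas5 lies at -0.17 with TMM and at 0.53 with library totals, and Kcnq1ot1 lies above 2 under both.

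Kcnq1ot1 sits in an imprinted domain, and the genes of that domain are given beside it. Neither Kcnq1, the potassium channel gene it runs through, nor Cdkn1c, a cell cycle inhibitor silenced on the paternal chromosome, was called with the mutation. Of 10 tested genes of the domain 0 were called by edgeR, DESeq2 or limma-voom, and 0 had an unadjusted p under 0.05. In Mut AdCtrl against Mut 5 of 11 rose and 1 fell, a share near the 53.6% of all genes called there. Cdkn1c was at 254 ± 20.1 and 572 ± 21.5 CPM (log2 1.13, adjusted p = 8.79e-18), Kcnq1 at 1.33 ± 0.582 and 4.52 ± 0.461 CPM (log2 1.72, adjusted p = 1.06e-05; SD, n = 3). Tnfrsf23 and Tnfrsf26, decoy-type receptors of the same cluster, rose by 1.08 and 1.01. The domain's median was 0.55 against 0.00 for all genes. With SMIM30 virus Cdkn1c alone was called of 11, where 1.43% of all genes were, at 521 ± 10.5 CPM (log2 -0.13, adjusted p = 0.00328), while Kcnq1ot1 was not.

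In the line, where Kcnq1ot1 stood highest, Kcnq1 and Cdkn1c had no counts in any of the 6 libraries. Against WT, taking a floor of 3 counts per library, Cdkn1c was at least 540.1-fold lower and Kcnq1 at least 2.78-fold lower in siCtrl. Other genes of the domain were counted in the line. Tssc4, which rose, was at 12.4 ± 1.24 CPM in WT against 57.9 ± 2.43 CPM in siCtrl (log2 1.53 with TMM), and Tnfrsf26, which fell, at 35.6 ± 2.94 and 19.5 ± 3.05 CPM (log2 -1.60; SD, n = 3). Of 9 genes tested 4 rose and 5 fell with TMM, and the counts were the same with library totals. No allele was read, so imprinting itself was not measured.

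No gene of the 4 lists of proteins that work with these RNAs was called in a Smim30 comparison. Of 18 paraspeckle proteins, which coat Neat1, 0 were called in each of the 3 Smim30 comparisons, the knockdown included. The same count, 0 of 18, was found for nuclear speckle and splicing proteins, the partners of Malat1. None of 14 factors of nonsense-mediated decay and none of 15 proteins of snoRNA particles passed in any of the 3. Neither limma-voom nor DESeq2, where it gave an adjusted p, called any. At an unadjusted p under 0.05, edgeR had 3, 4 and 0 paraspeckle proteins, 4, 4 and 2 speckle proteins, 0, 2 and 3 decay factors and 1, 1 and 3 snoRNA particle proteins in Mut, with the SMIM30 virus and in the knockdown. The medians of these 4 lists lay between -0.13 and 0.03 on the log2 scale, where all genes had medians between -0.01 and 0.00.

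Of the noncoding hosts outside the 8, 0 of 8 were called in Mut against WT, 0 of 8 with the SMIM30 virus and 0 of 9 in the knockdown, by edgeR, by limma-voom and by DESeq2 where it gave an adjusted p, with 1, 0 and 0 at an unadjusted p under 0.05. These counts and those that follow are to be read against the same shares of all genes. Of 16 protein-coding hosts, Rpsa rose in Mut (log2 0.19), Eif4a2 fell with the SMIM30 virus (log2 -0.17) and 0 were called in the knockdown, where 3 had an unadjusted p under 0.05. Ribosomal protein genes, which share the TOP start with the hosts, had 4 of 60 called in Mut, a share near the 6.3% of all genes (2 by DESeq2), all higher: Rpl7 by 0.23, Rps20 by 0.25, Rpl32 by 0.24 and Rpl10 by 0.18. They had 0 of 60 called with the SMIM30 virus (5 at an unadjusted p under 0.05) and 1 in the knockdown, Rpl9, lower by 0.22. Of 21 genes of ribosome biogenesis and RNA polymerase I, Polr1a was called in Mut (log2 -0.31) and Polr1b in the knockdown (log2 -0.34). Among other long noncoding RNAs, 0 of 12 and 0 of 13 were called in the primary cells (2 and 5 at an unadjusted p under 0.05, and 1 and 0 called by limma-voom) and 1 of 15 in the knockdown. That 1 was Dleu2, host of a microRNA cluster, at 83.9 ± 1.95 and 97.9 ± 8.40 CPM (log2 0.24, adjusted p = 0.00424).

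In the virus control against the uninfected mutant cells, the counts of these lists are to be read against the 53.6% of all genes called, about as many higher (3472) as lower (3390). Of 12 other long noncoding RNAs 7 fell and 0 rose, with a median of -0.40 against 0.00 for all genes. Mir155hg, host of miR-155, was at 42.5 ± 8.93 CPM in Mut and 10.8 ± 1.42 CPM in Mut AdCtrl (log2 -1.98), and Lncpint at 49.0 ± 6.96 and 23.1 ± 1.96 CPM (log2 -1.11; SD, n = 3). Of 8 noncoding snoRNA hosts Snhg5 fell (log2 -0.61). Of 15 snoRNA particle proteins 6 fell, among them Dkc1 by 0.74 and Nhp2 by 0.65, while 41 of 60 ribosomal protein genes rose and 1 fell. Speckle proteins split, 5 up and 7 down of 18, with Clk1 at 0.50 and Srsf2 at -0.42. Paraspeckle proteins split too, 2 up and 4 down of 18, with Ewsr1 at 0.33 and Cpsf6 at -0.45. Decay factors had 1 up and 4 down of 14, with Smg5 at -0.58.

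In the line against WT, 80.3% of all genes were called with TMM and 49.96% of the calls were higher, while 75.2% of the calls were higher with library totals, and the lists are to be read against these shares. Of 18 speckle proteins 15 rose and 3 fell with TMM, and 17 rose and 0 fell with library totals, with Alyref at 2.12 and Pnn at 1.55 under TMM. Of 18 paraspeckle proteins 15 rose and 2 fell with TMM, and 18 rose with totals, with Taf15 at 2.07. Of 15 snoRNA particle proteins 11 rose and 2 fell with TMM and 14 rose and 1 fell with totals, with Gar1 at 1.59 and Nop56 at 1.24. Among the other noncoding snoRNA hosts 6 of 9 rose and 1 fell with TMM, and 8 rose and 1 fell with totals: Snhg17 was at 24.6 ± 2.02 and 89.8 ± 1.22 CPM, Snhg5 at 4.67 ± 1.12 and 14.6 ± 1.28 CPM (SD, n = 3). Ribosomal protein genes turned with the scaling, as Gas5 did: 15 rose and 35 fell of 60 with TMM, and 50 rose and 4 fell with totals. Protein-coding hosts had 6 up and 8 down of 16 with TMM, and 14 up and 0 down with totals. Decay factors had 5 up and 6 down of 14 with TMM, and 12 up and 0 down with totals.

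The chromosomal neighbours of the 8 genes were taken as every protein-coding gene within 100 kb. Of 41 tested in Mut against WT, 1 rose and 3 fell: Cdc42ep2, near Neat1, by 0.22, and Wdr81 by -0.24, Scarf1 by -0.32 and Slc43a2 by -0.41, all near Mir22hg. Of 40 in the SMIM30 virus comparison, Nxf1 near Snhg1 fell by 0.22. Of 39 in the knockdown 2 rose and 1 fell, Ehbp1l1 by 0.22 and Serpinc1 near Gas5, at 2.05 ± 0.2003 and 0.771 ± 0.472 CPM, by -1.39. Mir22hg itself passed in none of these. Over all genes 6.3, 1.43 and 3.48% were called in the 3 comparisons. Near Malat1 and Neat1, Ltbp3, a binding protein of latent TGF-beta, was at 72.7 ± 0.779 CPM in WT (SD, n = 3) and without a count in siCtrl, at least 166-fold lower, while both RNAs stood higher there.

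Gas5 is named for its rise in growth arrest and Neat1 is a known target of p53, so genes induced by p53 were followed as a list. Over all genes 6.3, 3.48 and 1.43% were called in Mut, in the knockdown and with the SMIM30 virus. In Mut, 2 of 18 rose, Cdkn1a by 0.42 and Mdm2 by 0.22, and 2 fell, Gdf15 by 0.43 and Bax by 0.20. In the knockdown Cdkn1a was at 290.2 ± 4.005 and 344 ± 4.21 CPM (log2 0.26, adjusted p = 9.02e-08), the 1 call of 17. With the SMIM30 virus Gdf15 was called of 18, at 297 ± 21.7 and 257 ± 4.83 CPM (SD, n = 3), with log2 -0.20 and edgeR adjusted p = 0.00237. In Mut AdCtrl against Mut 14 of 18 were called with TMM (53.6% of all genes). With library totals 10 rose and 4 fell. Btg2 rose by 1.49 with TMM there. In siCtrl against WT 16 of 18 were called with TMM (80.3% of all genes). With library totals 6 rose and 10 fell. Gdf15 differed by -3.03 with TMM there. The part of p53 in Neat1 was not tested.

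The genes whose log2 CPM tracked each member best over the 18 libraries are given as a description. With 12 primary and 6 IC-21 libraries, these correlations can carry the difference between the cell sources or that between infected and uninfected cells. With TMM, as used here, the log2 difference of siCtrl from WT was 0.24 for Neat1 and -0.17 for Gas5. That of Mut AdCtrl from Mut was -0.43 and -0.09. The share of each difference in the correlations was not tested. For Malat1 the highest of 11654 genes were Srsf5 (Pearson's r 0.965), itself a speckle protein, Srsf11 (0.951) and Fam83h (0.950). For Neat1 they were Csf3 (0.976), the cytokine G-CSF, Polg (0.972) and Wnt6 (0.969). Csf3 was at 5.49 ± 0.968 CPM in WT, 6.02 ± 2.04 in Mut, 0.737 ± 0.377 in Mut AdCtrl, 0.351 ± 0.188 in Mut AdSmim30, 21.9 ± 4.43 in siCtrl and 49.2 ± 8.27 in siSmim30 (SD, n = 3), so its group means had the order of those of Neat1 except that WT and Mut changed places. For Kcnq1ot1 they were Nf1 (0.992), Ptbp2 (0.991) and Nktr (0.991), and for Snhg1 Zfp64 (0.980), Ttf2 (0.980) and Mdc1 (0.979). For Mir22hg, Vmp1 (0.960) and Stx4a (0.957) were among the highest. The best matches of the other members had lower values: Pabpn1 for Gas5 (0.858), Hnrnph1 for Snhg12 (0.849) and the antisense gene Rab11fip4os1 for Snhg8 (0.828).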

How the data were processed

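RNA of 18 libraries in 6 groups of 3 was sequenced strand-specifically from total RNA, per the labels' protocols. The authors deposited unnormalized counts, in which each read pair is assigned to a gene by its exons on the reverse strand, made with featureCounts 2.0.3 and GENCODE M25 on GRCm38, per the file headers. Multi-mapping pairs and pairs over more than 1 gene were not counted. FastQC, fastp, HISAT2 and DESeq2 are also named, per the submitters' processing notes. The number in each header differed from that in the file's name, and samples were taken from the series' record. Symbols came from GENCODE M21 (55141 of 55401 identifiers matched).

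Levels are CPM on each library's total, or RPKM per counted exon length. Each comparison was fitted on its own 6 libraries (12 for the difference of effects) with edgeR 4.0.16 in R 4.3.3: filterByExpr, TMM, robust quasi-likelihood F test, Benjamini-Hochberg over all genes, threshold 0.05. Alternatives used DESeq2 1.42.0, limma 3.58.1 (voom), other scalings and filters, all 18 libraries, a replicate block, no ribosomal RNA genes, and each library left out in turn. Ratios were tested by exact permutation. The fit was tested on simulated data. The detection floor was 3 counts.

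All 8 members are named, with up to 4 called genes without overlap per list and comparison and the 3 best-correlated genes per member. Not all of these are printed. The members and lists were chosen with earlier results of these data known.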

Additional observations from a re-analysis of the deposited data

Results flagged for a closer look

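The effect of the Smim30 mutation on Neat1 in primary cells differed from that of the Smim30 siRNA in the line by an interaction test in 1 model of 12 libraries. The mutation effect minus the siRNA effect was -0.28 on the log2 scale (SE 0.07, edgeR adjusted p = 0.0211). Neat1 was lower in Mut by 0.09 on the log2 scale, not past the threshold, and higher in siSmim30 by 0.19. The adjusted p ran from 0.000252 to 0.390 over 21 alternatives. Cell source, mutation or siRNA, and the part of the series coincide in this contrast and cannot be told apart.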

How the results depend on the processing

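Of 48 results for members, 31 kept their side of the threshold and 32 their sign under every alternative run, and 16 kept both. Gas5 in siCtrl against WT turned from -0.17 to 0.53 with library totals only, as the median of all genes moved by 0.70 on that scale. Counts of called genes with all 18 libraries in 1 fit were 1198 against 788 in Mut against WT, 87 against 181 for the SMIM30 virus and 263 against 472 for the knockdown; with DESeq2 they were 70 and 282 in the latter pair of comparisons. The cause was not tested. Leaving out 1 library in turn gave 469 to 957 calls for the mutation, 66 to 453 for the SMIM30 virus, 309 to 422 for the knockdown and 267 to 571 for the difference of effects (372 in the fit of 12). The libraries that moved a count by over 1.5 times were Mut replicate 2 (469), Mut AdSmim30 replicates 3 (66) and 2 (106), Mut AdCtrl replicates 1 (82) and 3 (453), siCtrl replicate 2 (309) and, for the difference of effects, Mut replicate 3 (571). With a replicate block the counts were 782, 253, 546 and 410. Deviations of same-numbered libraries correlated little over all genes in the 3 Smim30 comparisons (at most 0.0871). Such a correlation can miss a pairing, so whether the numbers pair the libraries is not known. The block called Malat1 (adjusted p = 3.40e-07) and Neat1 (adjusted p = 0.0265) with the SMIM30 virus. Depth limits Snhg8 and Snhg12 most, and DESeq2 gave no adjusted p for 6 of 8 members with the SMIM30 virus and for Snhg8 and Snhg12 in the knockdown and the difference of effects.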
